A study of Mus musculus with 2 samples.

Results

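Cytosolic ribosomal protein genes, which encode the proteins of the ribosomes that translate nuclear mRNAs, were followed in M210B4, an established stromal line of mouse bone marrow. Members were the genes whose symbol is Rpl or Rps with a number (and at most a final a, x or y), together with Rplp0, Rplp1, Rplp2 and Rpsa, and their measured values played no part in that choice. Of 22180 genes with a probe set of their own 57 are members, 35 of the large and 22 of the small subunit. RefSeq lists 76 genes under the same symbols, 46 of the large and 30 of the small subunit. Of the other 19, 12 share a probe set with other symbols and 7 were not analysed here, so the account covers most but not all of the ribosome. A gene with several probe sets was represented by the brightest.

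The study compared cells given a CD84-activating antibody for 24 h (anti-CD84) with cells given an isotype antibody for 24 h (IgG1). CD84 is a self-binding surface receptor of the SLAM family. Both cultures were kept in RPMI medium with 2% serum and are cultures of 1 cell line with no genetic change named in the labels. From 200000 cells each, 200 ng of total RNA was labelled and put on 1 array per treatment (Affymetrix Mouse Gene 2.0 ST). There are thus no replicates, so neither an error nor a p-value can be given. Every difference is the log2 value after anti-CD84 minus that after IgG1 on these arrays. RNA was pooled over each culture, so fewer cells with an mRNA and less of it per cell cannot be told apart.

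The arrays held 41345 probe sets each, and their log2 signals correlated with a Pearson r of 0.967 across probe sets, which are not independent replicates. How precise a value is depends on the number of arrays, here 1 a treatment. A gene was called detected when its signal lay above 4.84 on at least 1 array, the 95th percentile of 1405 olfactory and vomeronasal receptor probe sets. By this rule 13290 genes were detected, with a median difference of 0.09. Of 10 measured marrow stromal markers 9 were detected on both arrays, among them Col1a1 at 12.52 and 12.53. All 10 passed the detection rule, 8 were higher after anti-CD84 and the median difference was 0.25. Past 1.5-fold were Cxcl12, at 10.29 after anti-CD84 and 9.19 after IgG1, and Pdgfra, at 10.21 and 9.29. Among all detected genes 10.7% were 1.5-fold higher and 41.0% had a difference below 0. Of 6 measured haematopoietic markers, Cd68 alone was detected, at 5.95 after anti-CD84 and 6.21 after IgG1. The endothelial genes Cdh5 (4.61 and 5.56) and Pecam1 (4.32 and 4.99) and the epithelial Cdh1 (4.73 and 5.68) were below the level after anti-CD84 and above it after IgG1. So was the stromal marker Thy1 (4.39 and 4.95). The epithelial Krt8 was detected on both arrays (5.27 and 5.42), and Kdr and Epcam on neither. Cdh5, Pecam1, Cdh1, Thy1 and Krt8 all lie near the detection level. The part of any of these markers in the differences below was not tested.

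A ribosome joins a large subunit, which forms peptide bonds, to a small subunit, which reads the mRNA. Most ribosomal proteins are present in about equal number per ribosome, and cells keep the synthesis of ribosomal proteins in step. This is in part because their mRNAs begin with a pyrimidine tract, the 5′ TOP motif, through which mTOR signalling controls their translation. That control acts on translation and need not alter the mRNA level that an array measures. Ribosomal protein genes also have many processed pseudogenes, whose sequences can resemble the parent gene closely, so probes for a member may also bind pseudogene transcripts.

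Most ribosomal protein mRNAs differed little between the arrays, and the few that differed by 1.5-fold were nearly all lower after anti-CD84. Of the 57 members 55 were detected, 54 of them on both arrays. Of these 55, 1 was at least 1.5-fold higher (10.7% of all detected genes were), 6 were at least 1.5-fold lower (6.40% of all detected genes were) and 48 lay within 1.5-fold. At 2-fold, 0 members were higher (1.98% of all detected genes) and 2 were lower (1.43%). The median difference of the members was -0.03, beside 0.09 for all detected genes. In 34 of 55 members the signal was lower after anti-CD84, and 41.0% of all detected genes had a difference below 0. The median size of the difference, disregarding its sign, was 0.16 for the members and 0.27 for all detected genes, and 38 of 55 members differed by less than 0.3 in either direction. With differences centred on the median of all detected genes, the members' median was -0.12. Centring lowered each difference by 0.09, and 43 of 55 members were then below 0.

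**Figure D1:**
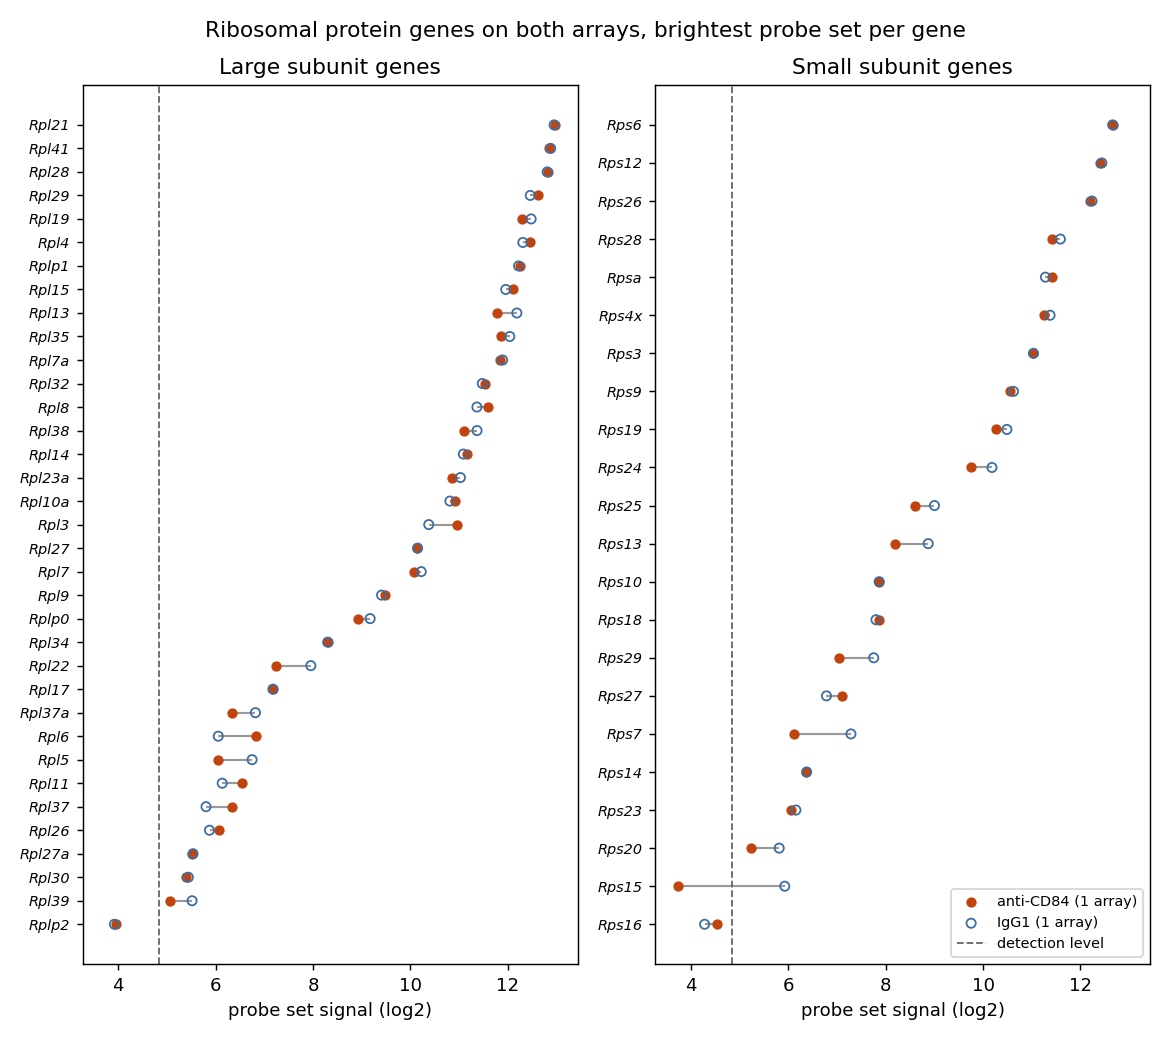
Log2 signal of all 57 members on both arrays, large subunit genes on the left and small subunit genes on the right, each ordered by mean signal. Filled points are the anti-CD84 array, open points the IgG1 array, and the dashed line is the detection level of 4.84. Points nearly coincide for bright genes such as Rpl21 and Rps6 and stand apart for Rps15, Rps7 and Rpl6.

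The 6 lower members were Rps15, Rps7, Rps29, Rpl22, Rpl5 and Rps13, 2 of the large and 4 of the small subunit. Rps15, a protein of the small subunit head that lies near the decoding site, had a log2 signal of 3.73 after anti-CD84, under the detection level, against 5.93 after IgG1. Counted from the detection level it was at least 2.13-fold lower, a figure that takes the IgG1 value as free of noise. Rps7, a protein of the small subunit body, had 6.13 after anti-CD84 against 7.29 after IgG1, 2.23-fold lower. It was the only member past 2-fold with both values above the detection level.

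Rps29, a zinc-binding protein of the small subunit head, stood at 7.04 after anti-CD84 and 7.76 after IgG1, which is 1.65-fold lower. Rpl22, an RNA-binding protein at the rim of the peptide exit tunnel, had 7.24 after anti-CD84 and 7.95 after IgG1, also 1.65-fold lower. These genes were about equally far apart on arrays where neither signal was near the detection level. Rpl5, which with Rpl11 carries the 5S ribosomal RNA into the large subunit, had 6.05 after anti-CD84 and 6.75 after IgG1, 1.62-fold lower. Rps13, of the small subunit body, had 8.20 after anti-CD84 and 8.87 after IgG1, 1.60-fold lower, and was the brightest of the 6.

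The only member at least 1.5-fold higher was Rpl6, a large subunit protein, at 6.83 after anti-CD84 and 6.05 after IgG1, which is 1.71-fold. Just inside the threshold on the upper side were Rpl3, a protein close to the peptidyl transferase centre, at 10.95 against 10.38 (difference 0.58), and Rpl37, at 6.35 against 5.80 (0.54). Rps27, of the small subunit, had 7.11 after anti-CD84 against 6.79 (0.33), and Rpl8, a core protein of the large subunit, 11.59 against 11.37 (0.22). On the lower side Rps20, of the small subunit head, was nearest to it, at 5.24 after anti-CD84 against 5.81 after IgG1 (-0.57). Rpl37a followed at 6.33 against 6.82 (-0.49) and Rpl39, a small protein that lines the exit tunnel, at 5.06 against 5.52 (-0.46). Rpl37, Rps20, Rpl37a and Rpl39 gave signals under 7, where the differences of detected genes in general spread most.

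The region around the annotated start is printed for members at both ends of this range, because shared promoter elements are the usual account of ribosomal protein genes being expressed together. Sequences are from RefSeq (GRCm38.p6), 5′ to 3′ on the gene's own strand, with 60 bases before and 20 from the start onwards. They cover 5 of the 7 members past 1.5-fold, in order from lowest to highest difference, and then 5 of the brightest members (those with a single annotated start), all within 1.5-fold. Capitals mark CTTTC, found in many 5′ TOP tracts, and CCGGAAG or its reverse complement CTTCCGG, the letters bound by ETS family factors such as GABP.
Rps15, chr10:80292371-80292450, plus strand: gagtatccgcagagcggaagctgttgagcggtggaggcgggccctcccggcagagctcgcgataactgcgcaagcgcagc
Rps7, chr12:28635934-28636013, minus strand: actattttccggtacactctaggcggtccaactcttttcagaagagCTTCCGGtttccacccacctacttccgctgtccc
Rpl5, chr5:107900468-107900547, plus strand: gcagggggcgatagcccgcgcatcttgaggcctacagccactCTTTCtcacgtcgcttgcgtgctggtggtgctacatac
Rps13, chr7:116334171-116334250, minus strand: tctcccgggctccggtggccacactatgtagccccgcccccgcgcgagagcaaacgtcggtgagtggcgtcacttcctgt
Rpl6, chr5:121204441-121204520, plus strand: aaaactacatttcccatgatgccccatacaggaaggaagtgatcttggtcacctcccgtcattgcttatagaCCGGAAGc
Rpl41, chr10:128549149-128549228, minus strand: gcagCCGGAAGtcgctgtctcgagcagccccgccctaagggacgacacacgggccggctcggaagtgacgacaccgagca
Rpl28, chr7:4792905-4792984, plus strand: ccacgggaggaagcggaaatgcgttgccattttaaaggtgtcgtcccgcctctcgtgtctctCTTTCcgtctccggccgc
Rps6, chr4:86857348-86857427, minus strand: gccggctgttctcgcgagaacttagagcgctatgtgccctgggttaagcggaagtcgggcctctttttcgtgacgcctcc
Rps12, chr10:23787190-23787269, minus strand: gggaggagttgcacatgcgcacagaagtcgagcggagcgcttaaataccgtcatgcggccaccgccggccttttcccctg
Rpl4, chr9:64173327-64173406, plus strand: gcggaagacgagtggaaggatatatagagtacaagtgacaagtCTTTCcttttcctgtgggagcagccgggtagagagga
CTTTC stands in capitals in Rpl5 of the lower members and in Rpl28 and Rpl4 of the bright ones. An ETS motif stands in capitals in Rps7, Rpl6 and Rpl41, and neither set of letters is in the windows of Rps15, Rps13, Rps6 and Rps12. The letters CTTTC do not tell whether a gene has a 5′ TOP tract. Rps6 has a run of C and T from its annotated start, and Rps12 has one shortly after it, both without CTTTC. In Rpl5 and Rpl4 the CTTTC lies before the annotated start.

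Over the full RefSeq window of 300 bases (250 before the start and 50 after), 44 members had a sequence, and a gene was counted when any of its annotated starts held the motif. CTTTC, searched on the gene's strand, was in 65.9% of the 44 members and in 37.9% of all 27025 genes with such a window. CCGGAAG, searched on both strands, was in 45.5% of the members and in 9.93% of all genes. AAGATGG, the letters of YY1, on both strands, was in 13.6% of the members and 7.28% of all genes, and TATAAA, the TATA box, on the gene's strand, in 6.82% and 9.77%. An AAGATGG can overlap a CCGGAAG by its first 3 bases. These shares describe the letters in the windows and not bound sites.

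CTTTC and the ETS motif occurred among members past 1.5-fold and among those within it. CTTTC was in 4 of 6 members past 1.5-fold and in 24 of 36 detected members within it. The ETS motif was in 2 of these 6 and in 17 of these 36. The YY1 letters were in 2 of the 6 and 3 of the 36, and the TATA box in 0 of the 6 and 3 of the 36. The median difference was -0.01 for 19 detected members with an ETS motif and -0.11 for 23 without one, and -0.06 for 28 with CTTTC and -0.03 for 14 without it.

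Large subunit genes lay above small subunit genes in their differences. The 34 detected large subunit members had a median difference of 0.00, with 17 lower and 17 higher after anti-CD84. The 21 detected small subunit members had a median of -0.11, and 17 of them were lower. The medians were thus 0.11 apart on the log2 scale, a gap for which these arrays give no error. Past 1.5-fold, the large subunit had 2 lower and 1 higher member and the small subunit 4 lower and 0 higher. Among all detected genes 6.40% were 1.5-fold lower and 10.7% higher.

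The subunits also differed in signal, since the detected large subunit members had a median signal of 10.77 and the small subunit members one of 8.80. Divided at the members' median signal of 10.14, the 18 bright large subunit members had a median difference of 0.03 and the 9 bright small subunit members one of -0.05. Among dim members the medians were -0.01 for 16 large and -0.41 for 12 small subunit genes. Of the dim large subunit genes 10 of 16 were lower after anti-CD84, against 10 of 12 dim small subunit genes. The gap between the subunits was therefore wider among dim probe sets. In narrower ranges of signal the small subunit median was again the lower one, with few genes in each. Under 7 the medians were -0.01 for 9 large and -0.34 for 6 small subunit genes, and from 7 to 9 they were -0.005 for 3 and -0.40 for 5. Between 9 and 11 they were -0.003 for 7 large and -0.22 for 3 small subunit genes, and over 11 they were 0.03 for 15 and -0.04 for 7. How much of it follows probe set signal was not tested.

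**Figure D2:**
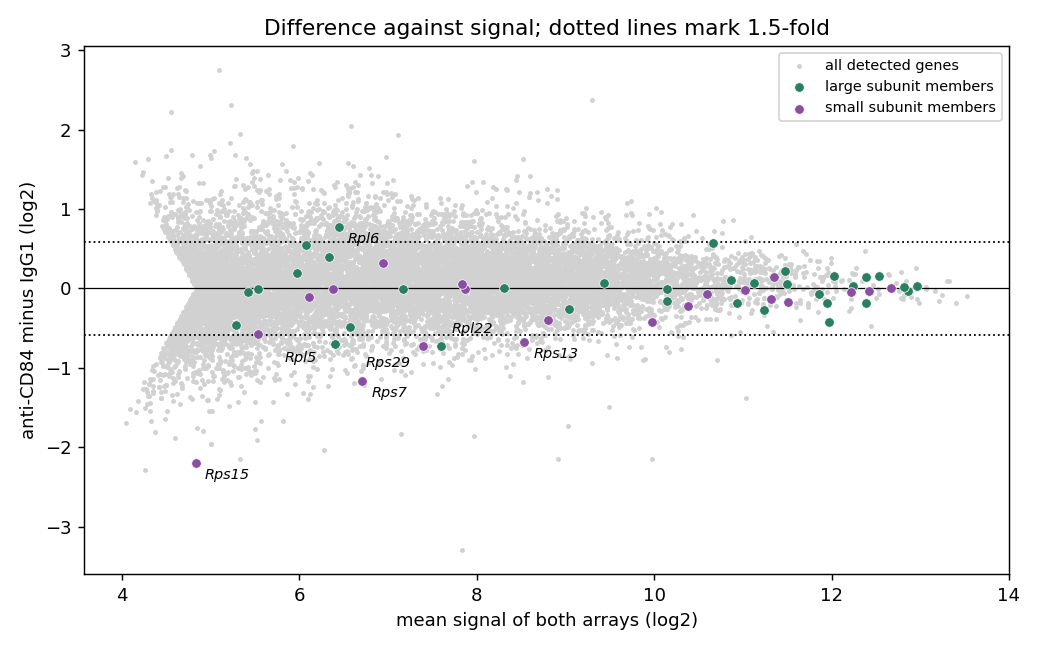
Difference (anti-CD84 minus IgG1, log2) against the mean signal of both arrays for all 13290 detected genes in grey and the 55 detected members in colour by subunit. Dotted lines mark 1.5-fold. The 7 named members lie under a signal of 9, and members over 11 stay within the lines.

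Bright probe sets differed least. The 27 members brighter than the median had a median difference of -0.01, a range of -0.42 to 0.58 and 0 members past 1.5-fold in either direction. The 28 members at or under the median had a median of -0.08, and all 7 members past 1.5-fold were among them. Those detected on both arrays ranged from -1.16 to 0.78, and Rps15, below the detection level after anti-CD84, was at least 2.13-fold lower. Disregarding the sign, the median difference was 0.13 for bright and 0.36 for dim members. Across the 55 detected members, the size of the difference correlated with signal at a Spearman rho of -0.38, and the signed difference at 0.21. These points share the same pair of arrays and are given as a description.

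The same narrowing holds for genes in general, so the members were also set beside all detected genes of like signal. Over 11 on the log2 scale, 0 of 22 members were 1.5-fold lower and 0 higher, where 0.368% and 0.735% of 272 detected genes were. Differences had a standard deviation of 0.15 among those members and 0.22 among those genes. Between 9 and 11, 0 of 10 members passed 1.5-fold, where 1.34% of 1936 genes were lower and 5.32% higher. In the range from 7 to 9, 3 of 8 members (Rps13, Rps29 and Rpl22) were 1.5-fold lower, where 2.93% of 4542 genes were, and the members' median was -0.20 beside 0.12 for the genes. Under 7, 3 of 15 members were lower and 1 higher, where 10.6% and 13.4% of 6540 genes were. The members' medians lay below those of the genes of like signal in each of the 4 ranges, including the range under 7, where they were -0.05 and 0.04. Below 0 were 11 of 22 members over 11 (34.6% of those genes), 7 of 10 between 9 and 11 (35.2%), 6 of 8 from 7 to 9 (35.5%) and 10 of 15 under 7 (46.7%).

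The brightest members were nearly level on the arrays. Rpl21, a large subunit protein, had 12.98 after anti-CD84 and 12.95 after IgG1. Rpl41, the smallest ribosomal protein, had 12.85 and 12.88, and Rpl28 had 12.82 and 12.81. Rpl29 was slightly further apart, at 12.62 and 12.46. Signal depends on the sequence of the probes as well as on the mRNA, so its order among genes is not an order of abundance.

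In the small subunit the brightest was Rps6, the protein that S6 kinases phosphorylate downstream of mTOR, with 12.67 after anti-CD84 and 12.66 after IgG1. Rps12 had 12.40 and 12.44, Rps26, which lies where mRNA leaves the subunit, 12.19 and 12.24, and Rps28 11.42 and 11.59. All 4 differed by less than 0.2. Among all members over 11, Rpl13 had the widest difference, -0.42, with 11.77 after anti-CD84 and 12.19 after IgG1.

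Dim members were far more scattered, and some of them were level. In the large subunit Rpl30 had 5.39 after anti-CD84 and 5.44 after IgG1, and Rpl27a had 5.52 and 5.54. Rplp2, an acidic stalk protein, was not detected on either array, at 3.96 and 3.92, which gives no fold. Rps16, of the small subunit head, was not detected either, at 4.55 and 4.28. Rps23, a protein of the decoding centre, had 6.05 and 6.16, and Rps14, of the small subunit platform, had 6.37 and 6.38.

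By position in the ribosome, partners could lie on opposite sides of 0. Of the pair that binds 5S RNA and can hold the p53 inhibitor Mdm2, Rpl5 was lower (-0.69) and Rpl11 had 6.53 after anti-CD84 against 6.13 after IgG1 (0.40). In the stalk that recruits elongation factors, the base protein Rplp0 had 8.92 after anti-CD84 and 9.17 after IgG1 (-0.26), and Rplp1 had 12.25 and 12.22 (0.03, or -0.05 with differences centred). The further probe sets of Rplp0 (0.03) and Rplp1 (0.62) were both above 0, so the opposite sides hold only for the brightest ones. The laminin receptor homologue Rpsa, at the mRNA exit of the small subunit, had 11.42 after anti-CD84 and 11.28 after IgG1 (0.14). With Rps23 (-0.11) and Rps26 (-0.05), the 3 measured members of the decoding and mRNA path group stayed within 1.5-fold.

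Exit tunnel and head proteins were mostly lower, as were the members as a whole (34 of 55) and the small subunit (17 of 21). Among all detected genes 41.0% were below 0 and 6.40% were 1.5-fold lower. Of 8 detected members at the peptide exit tunnel, 6 were lower after anti-CD84, 1 of them past 1.5-fold (Rpl22), with a median of -0.18. Rpl19, Rpl35 and Rpl23a had like differences in their brightest probe sets, each -0.18, whereas Rpl4 (0.15) and Rpl26, at 6.07 after anti-CD84 against 5.87 (0.19), were higher. Further probe sets went the other way in Rpl19 (0.21), Rpl35 (0.18, and 0.48 with IgG1 under the detection level) and Rpl4 (-0.96). Of 10 detected proteins of the small subunit head, 9 were lower and 2 of these past 1.5-fold (Rps15 and Rps29), with a median of -0.20. Rps25 was at -0.40 and Rps19 at -0.22, while Rps10 and Rps3 were both at -0.01, and Rps18, at 0.06, was the member above 0. With differences centred it lay at -0.03, so the whole detected head group was then below 0.

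A partial list of genes mutated in human Diamond-Blackfan anaemia, an inherited failure of red cell production, was scattered likewise. It leaves out further genes linked to that disease, Rps29 among them. Of its 8 detected genes 6 were lower after anti-CD84 (41.0% of all detected genes were), and 2 of these past 1.5-fold, Rps7 and Rpl5 (6.40% of all detected genes). Rps24 was next, at 9.76 after anti-CD84 and 10.18 after IgG1 (-0.42), while its further probe sets differed less (-0.24 and -0.02). The median of the 8 was -0.14, and Rpl11 and Rpl26 were the 2 above 0.

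The brightest probe set was not always matched by the others of the same gene. The 57 members had 97 single-symbol probe sets, 24 members had more than 1, and 7 probe sets repeated the values of another one of the same gene exactly (in Rps12, Rps19 and Rpl23a). This left 33 further distinct probe sets for 23 genes, of which 27, for 20 genes, were detected on both arrays. In 17 of the 27 the difference had the sign of the brightest probe set. Across the 27 pairs the differences correlated with a Pearson r of 0.20 and a Spearman rho of 0.16. Pairs share the arrays, and some share a gene.

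The spread again followed signal. The 27 further probe sets had a standard deviation of 0.43 and 6 were past 1.5-fold, beside 0.22 and 0 for the brightest probe sets of the same 20 genes. The 7 further probe sets over 11 differed by at most 0.21 in either direction. Among the 6, Rpsa (0.85), Rpl29 (0.73), Rpl21 (0.67) and Rplp1 (0.62) had a further probe set that was higher after anti-CD84. Rpl4 (-0.96) and Rps19 (-0.90) had a further one that was lower. In Rpl4 the brightest went the other way, at 12.46 after anti-CD84 and 12.31 after IgG1, against 7.62 and 8.59 for the further one.

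**Figure D3:**
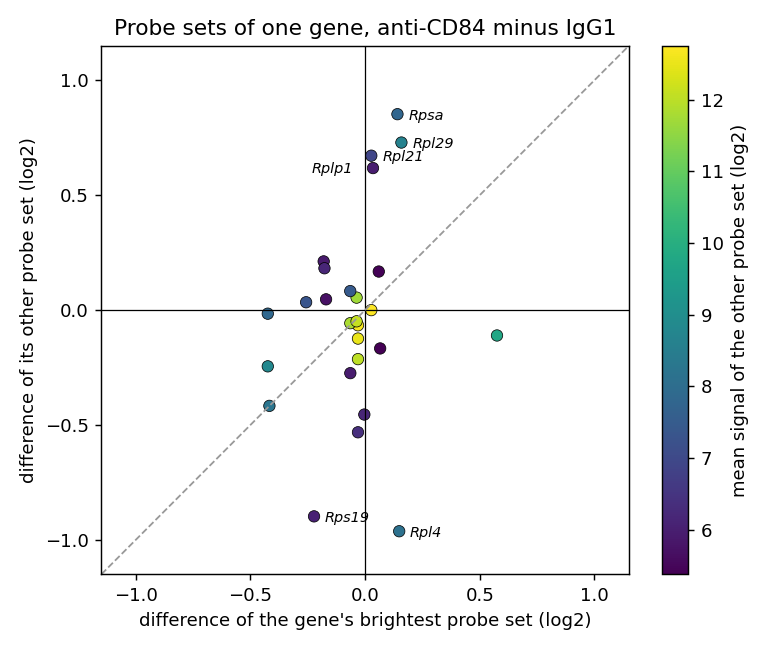
Difference (anti-CD84 minus IgG1, log2) of each further probe set against that of its gene's brightest probe set, for the 27 further probe sets detected on both arrays, coloured by the further probe set's signal. The dashed line marks equal differences. The brightest probe sets keep within 0.58 of 0, while further ones reach 0.85 and -0.96.

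Some genes gave repeated readings and some did not. Rpl13 had a difference of -0.42 in both of its probe sets, although their signals were near 12 and near 8. Rpl41 had 4 further probe sets, from -0.53 at a signal of 6.39 to -0.07 at 12.64, each lower after anti-CD84. The difference of 0.58 in Rpl3 was not seen in a further probe set at 9.71 after anti-CD84 and 9.82 after IgG1 (-0.11). For Rps20 a further probe set went the other way, with 5.04 after anti-CD84 against 3.86, under the detection level, after IgG1. All 7 members past 1.5-fold had a single probe set here, so none of them has a second reading of its own. Members with 1 probe set included all 7 among 31 detected, and the 24 members with several had 0.

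Probe sets shared with other symbols gave a further view of the family, although they may also report pseudogenes, snoRNAs of the introns or neighbouring genes. Of 57 such probe sets that list a member symbol 54 were detected, 37 of them were lower after anti-CD84 and the median was -0.09. At 1.5-fold 3 were higher and 7 lower. Of all detected genes with a probe set of their own, 10.7% were 1.5-fold higher, 6.40% 1.5-fold lower and 41.0% below 0. The 8 detected pseudogenes with a probe set of their own had 4 differences on each side of 0, with Rps15a-ps6 higher (6.50 after anti-CD84 against 5.40) and Rpl17-ps9 lower (6.65 against 7.59).

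Paralogues and fusion genes outside the symbol rule were within 1.5-fold where both arrays detected them. Rps27l, known as a p53 target from human cells, had 7.65 after anti-CD84 and 7.45 after IgG1. Rpl22l1, the paralogue of Rpl22, had 6.84 and 7.09, Rpl7l1 had 6.43 and 6.34, and Rps4l had 5.56 and 5.99. Rpl3l, the muscle paralogue of Rpl3, was below the detection level after anti-CD84, at 3.87 against 5.28, which makes it at least 1.36-fold lower. Rpl39l (4.82 and 4.82) and Rpl10l (3.34 and 3.20) were below it on both. Fau, a ubiquitin-like fusion that supplies a small subunit protein, had 11.76 and 11.88, and the assembly factor Rsl24d1 had 9.57 and 9.65.

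Translation factors and biogenesis genes mostly stayed within 1.5-fold. Among all detected genes 10.7% were 1.5-fold higher, 6.40% were 1.5-fold lower and 41.0% were below 0. Of 14 translation factors and other genes with TOP mRNAs 0 passed 1.5-fold, with 7 higher and 7 lower and a median of 0.01. These 14 had signals of 8.80 to 13.07, where few detected genes pass it. Between 9 and 11, 5.32% of detected genes were 1.5-fold higher and 1.34% lower, and over 11, 0.735% and 0.368%. The elongation factors Eef1a1 (13.08 and 13.06) and Eef2 (12.86 and 12.80) were level, and the nucleolar chaperone Npm1 was lowest, at 11.45 after anti-CD84 against 11.85. Among 40 ribosome biogenesis genes, Gar1, a box H/ACA snoRNP protein, was 1.55-fold lower (6.80 against 7.43), 0 were 1.5-fold higher and the median was 0.04. Myc, a driver of ribosome production, had 10.32 and 10.36.

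Other multi-subunit complexes also had more 1.5-fold lower than higher genes. Of 68 detected mitochondrial ribosomal protein genes 8 were 1.5-fold lower and 2 higher, with a median of 0.02 and 33 below 0. Mrps9 was the lowest of these, at 7.09 after anti-CD84 against 8.08, and Mrpl38 the highest, at 8.11 against 7.20. Mrps16 (-0.95), Mrpl13 (-0.82), Mrpl40 (-0.72), Mrps31 (-0.72), Mrps22 (-0.71), Mrpl11 (-0.67) and Mrps18b (-0.61) were the other lower ones, and Mrps14 (0.68) the other higher one. Of 35 detected proteasome subunit genes 3 were 1.5-fold lower and 0 higher, with a median of -0.08 and 24 below 0. Psmb1, a core subunit, was at 9.77 after anti-CD84 against 10.57, the ATPase Psmc5 at 8.44 against 9.17 and the immunoproteasome subunit Psmb9 at 5.94 against 6.75. All detected genes had more higher than lower ones as deposited (10.7% and 6.40%), but not with differences centred (7.71% and 8.49%). No test of a difference between the lists is possible with these arrays.

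**Figure D4:**
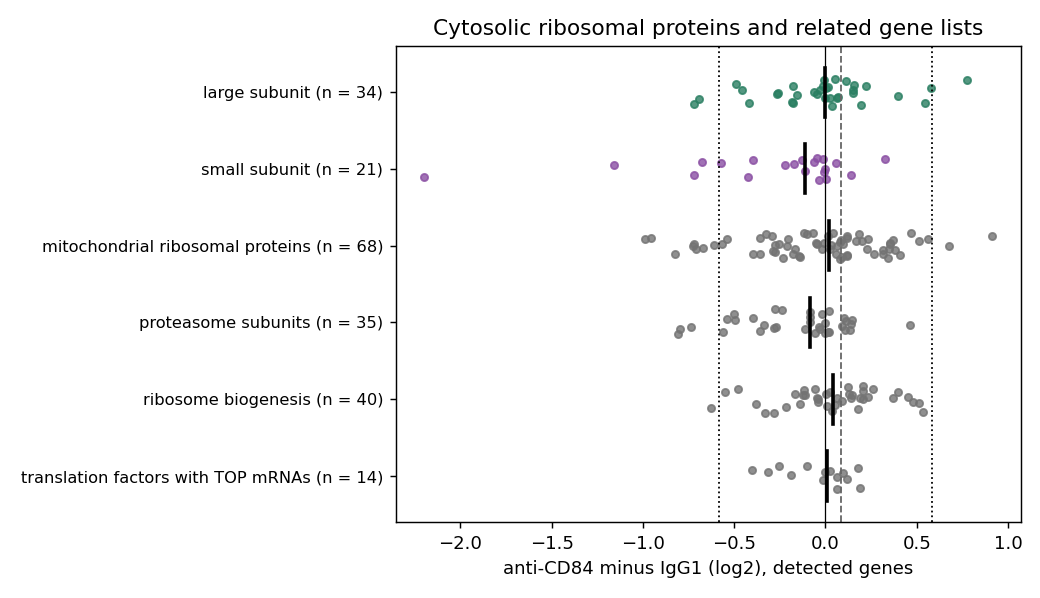
Difference (anti-CD84 minus IgG1, log2) of every detected gene of the large and small subunit and of 4 related lists, with each list's median as a black bar. The dashed line is the median of all detected genes (0.09) and dotted lines mark 1.5-fold. Medians lie between -0.11 for the small subunit and 0.04 for ribosome biogenesis, and Rps15, drawn at its value as deposited although undetected after anti-CD84, is the leftmost point.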

How the data were processed

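RNA of 1 anti-CD84 and 1 IgG1 culture was measured on 1 array each. The deposited table holds log2 values per probe set. Per the submitters' processing notes, the authors used RMA and Partek; the sources used here name no version, setting or build. That the scale is log2 was read from the range, 1.82 to 13.8, and the array medians, 4.87 (anti-CD84) and 4.88 (IgG1). RMA compresses differences of dim probe sets.

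Genes came from GEO's platform annotation, in which 23521 probe sets have 1 symbol, 1814 several and 16010 none. Named were members past 1.5-fold, the 8 highest and 8 lowest differences, the 4 brightest and 4 dimmest per subunit, all of 4 small role groups, members with several probe sets (most of these as counts), context genes past 1.5-fold and paralogues. Genes on shared probe sets only were given no values. Other named members illustrate their role group and were chosen after their values were seen. Members and lists were chosen with earlier results of these data known. Alternatives changed the scaling (centring, limma loess with span 0.4, quantile), the level filter, the floor and the probe set choice. Counting was tested on simulated data. Software was R 4.3.3 with limma 3.58.1, and Python 3.11.15 with numpy 2.4.6, pandas 2.3.3, scipy 1.17.1 and matplotlib 3.10.9.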

Additional observations from a re-analysis of the deposited data

How the results depend on the processing

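No paired analysis was possible because each treatment has 1 array, and for the same reason no replicate could be left out. The members' median stayed below 0 under 9 other settings of scaling, filter, floor and probe set (-0.12 to -0.01), and large minus small (0.02 to 0.16) and bright minus dim (0.01 to 0.14) stayed above 0. Centring cannot change these gaps, because it shifts every difference equally. With the floor, which changed only Rps15 among detected members, they were also as without it, 0.11 and 0.06. The count of members 1.5-fold higher, 1 as reported, was 0 at a stricter detection level of 6.88, 6 with each gene's dimmest probe set and 3 with several-symbol probe sets, the last chosen after seeing the data. The count of members 2-fold lower, 2 as reported, was 1 at the stricter level and 1 when both arrays had to be above the detection level, since these filters leave out Rps15. With the dimmest probe set 1 member was 2-fold higher, 0 as reported. Members 1.5-fold lower, 6 as reported, numbered 4 to 8. Rps20 passed 1.5-fold downward after centring, and Rps20 and Rpl37a after loess or quantile normalization. Centring turned the 10.7% higher and 6.40% lower of all detected genes into 7.71% and 8.49%. The 7 members past 1.5-fold kept their direction and stayed past it wherever they were measured, under these 9 settings. For most of the settings this could not come out otherwise. All 7 have 1 probe set, so the probe set choices return the same value. The level filters keep or drop a member without changing its difference, and of the 7 the floor changed only Rps15. Centring, loess and quantile normalization were the settings that could alter the others.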
